A study of Mus musculus with 10 samples.

Results

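Gas5, Snhg1, Snhg3, Snhg5, Snhg6, Snhg8 and Snhg12 are spliced noncoding transcripts that carry small nucleolar RNAs (snoRNAs) in their introns. These 7 genes were taken by symbol from the 51467 genes of the count table to describe their levels in wild-type (WT), Dgcr8 KO and Ddx6 KO mouse embryonic stem cells (ESCs). DGCR8 is the RNA-binding partner of Drosha, which cuts primary microRNAs in the nucleus, and cells without it lack canonical microRNAs. DDX6 is an RNA helicase of processing bodies that links microRNA-bound and decapping complexes to translational repression. The 10 libraries were 3 of WT ESCs, 3 of Dgcr8 KO ESCs and 4 of Ddx6 KO ESCs, the last from 2 clones with 2 libraries each. All were grown with serum, LIF and the MEK and GSK3 inhibitors known together as 2i, and carried no other stated allele or agent. The labels name CRISPR for the KO cells. The study made both Ddx6 KO clones with a single guide in the WT parental line and describes the Dgcr8 KO line as made earlier, so the knockouts also differ in their cell line history. The labels do not say whether replicates were separate cultures, and p-values therefore measure only the spread between these libraries, which may be technical.

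A snoRNA host is transcribed and spliced like a messenger RNA. The snoRNA is trimmed out of the removed intron and guides the chemical modification or cutting of ribosomal RNA, while the spliced exons go to the cytoplasm. There ribosomes can read short frames near the 5′ end of the exons. Exon junctions that lie beyond the stop codon of such a frame mark a transcript for nonsense-mediated decay (NMD), the pathway that degrades RNAs whose translation ends too early, and several Snhg transcripts and Gas5 are textbook NMD substrates. Many hosts also start with a pyrimidine tract, as the messenger RNAs of ribosomal proteins do.

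The hosts fall into groups by the class of snoRNA in their introns. Gas5, Snhg1, Snhg5 and Snhg6 carry box C/D snoRNAs, which guide ribose methylation. Snhg3 and Snhg8 carry box H/ACA snoRNAs, which guide pseudouridylation or, for Snora73, the cutting of the ribosomal RNA precursor. Snhg12 carries both classes. In the Gencode M21 annotation of GRCm38, the assembly that mm10 is built from, Gas5 (ENSMUSG00000053332.13) lies at chr1:161034422-161038539 on the + strand and holds 10 snoRNA genes. Snhg1 (ENSMUSG00000108414.1) lies at chr19:8723475-8726443 on the + strand and holds 8. Snhg12 (ENSMUSG00000086290.8) at chr4:132308623-132311024, also on the + strand, holds 5. Overlapping entries of a snoRNA are counted separately here, those of Snord80 in Gas5 and of Snora16a in Snhg12.

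On the - strand, Snhg3 (ENSMUSG00000085241.7) at chr4:132348014-132353686 holds Snora73a and Snora73b, and Snhg5 (ENSMUSG00000097195.9) at chr9:88521050-88522929 holds Snord50a and Snord50b. Snhg6 (ENSMUSG00000098234.7) at chr1:9941959-9944118 and Snhg8 (ENSMUSG00000104960.1) at chr3:123507552-123508404 hold a single snoRNA gene each, Snord87 and Snora24. The best supported spliced form runs from 473 bases in Snhg6 to 1004 in Snhg5, and from 2 exons in Snhg3 and Snhg8 to 12 in Gas5. In the exons used for counting, from an earlier release of that annotation, no member shared bases on its own strand with a gene other than its snoRNAs. Bases shared with a snoRNA numbered 119 of 865 in Snhg1, 159 of 581 in Snhg3 and 328 of 1363 in Snhg12, and a read there could be assigned to neither gene.

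In the best supported spliced form of each of the 7 members, the first ATG opened a short frame. At least 1 exon junction lay 50 bases or more past its stop. Only this 1 form was read for each gene, where between 3 (Snhg8) and 25 (Gas5) are annotated. Its start need not be the RefSeq start printed further below. The frames below are printed because they show how early each one ends. They are read from the annotated transcripts, with the start and stop codons in capitals, and ribosome occupancy was not measured here.
Gas5, bases 35 to 106 of the transcript: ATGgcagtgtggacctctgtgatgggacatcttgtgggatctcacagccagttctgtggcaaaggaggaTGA
Snhg1, bases 119 to 142: ATGctaacttctctacaggttTGA
Snhg3, bases 34 to 66: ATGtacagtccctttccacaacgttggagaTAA
Snhg5, bases 60 to 71: ATGaccaagTGA
In Snhg8 the first ATG was followed at once by the stop TAG. The frame was 23 codons long in Gas5, 7 in Snhg1, 10 in Snhg3, 3 in Snhg5, 53 in Snhg6 and 54 in Snhg12. Junctions 50 bases or more past the stop numbered 7 in Gas5 and in Snhg1, 4 in Snhg5, 3 in Snhg12 and 1 in Snhg3, Snhg6 and Snhg8. The longest frame was a later one in some members. In Snhg3 (43 codons from base 419) and Snhg5 (66 codons from base 694) no junction lay 50 bases or more past its stop. In each other member at least 1 did. How often other spliced transcripts have such a first frame was not counted.

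**Figure D1:**
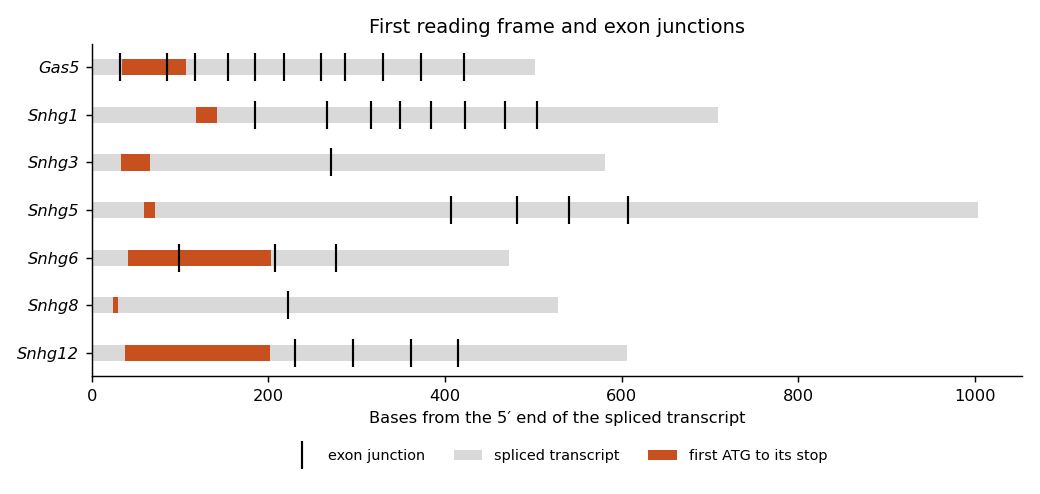
The 1 spliced form read for each host gene, drawn to scale in bases from its 5′ end (x axis). The stretch from the first ATG to its stop is in orange, and each exon junction is a black line. In all 7 transcripts a junction lies past the stop of the frame, from 1 junction in Snhg3 and Snhg8 to a run of them in Gas5 and Snhg1.

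The start regions are printed because 6 of the 7 genes have one in the RefSeq promoter table, GRCm38.p6, and most of these genes moved together in Ddx6 KO cells. Each line runs from 80 bases before the start to 50 after it, with TATAAA or TATATA on either strand in capitals (TTTATA is TATAAA read from the other strand, and TATATA reads the same on both). Gas5 has a second start in the table, upstream, whose window holds neither motif.
Gas5, chr1:161035086-161035215, + strand: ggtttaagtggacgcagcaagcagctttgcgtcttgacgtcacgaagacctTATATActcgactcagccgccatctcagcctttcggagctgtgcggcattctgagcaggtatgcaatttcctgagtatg
Snhg1, chr19:8723407-8723536, + strand: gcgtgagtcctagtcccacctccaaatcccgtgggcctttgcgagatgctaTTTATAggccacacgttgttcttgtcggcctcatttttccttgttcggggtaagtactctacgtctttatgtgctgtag
Snhg3, chr4:132353637-132353766, - strand: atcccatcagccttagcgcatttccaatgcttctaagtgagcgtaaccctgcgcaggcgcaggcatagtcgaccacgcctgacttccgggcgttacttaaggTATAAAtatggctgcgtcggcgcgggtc
Snhg5, chr9:88522848-88522977, - strand: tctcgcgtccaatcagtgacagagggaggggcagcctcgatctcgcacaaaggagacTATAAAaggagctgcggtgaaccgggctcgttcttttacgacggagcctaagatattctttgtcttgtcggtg
Snhg8, chr3:123508287-123508416, - strand: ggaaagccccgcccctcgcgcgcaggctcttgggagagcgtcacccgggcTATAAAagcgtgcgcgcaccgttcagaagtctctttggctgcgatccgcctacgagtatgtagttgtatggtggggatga
Snhg12, chr4:132308598-132308727, + strand: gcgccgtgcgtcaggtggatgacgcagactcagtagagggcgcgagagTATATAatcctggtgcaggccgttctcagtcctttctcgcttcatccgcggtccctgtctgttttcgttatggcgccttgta
All 6 genes held one of these motifs in the stretch shown, though Gas5 did not in its upstream window. Of the 32851 windows of the table, counted by window and not by gene, 7.77% held one. The motif began between 32 and 23 bases before the annotated start in 5 of the 6 genes and 22 bases after it in Snhg3. Whether the motifs relate to the levels was not tested. In the whole windows of the table, CACGTG, ACTTCCGG and TGACGTCA were searched for as well, on both strands, and 7.15%, 3.89% and 1.79% of all windows held them. Only ACTTCCGG in Snhg3 and TGACGTCA in Gas5 occurred among the members. A match of letters is a description and not a test of a factor's binding.

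The microRNAs that DGCR8 loss removes include the miR-290 family of ESCs. The members of it below share a seed, bases 2 to 8, shown in capitals, and are printed because a match to it was searched for in the hosts. Sequences are from RefSeq, GRCm38.p6.
mmu-miR-291a-3p, chr7:3218968-3218989, + strand: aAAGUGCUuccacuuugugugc
mmu-miR-294-3p, chr7:3220691-3220712, + strand: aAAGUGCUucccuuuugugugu
mmu-miR-295-3p, chr7:3220815-3220837, + strand: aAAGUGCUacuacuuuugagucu
The complement of the seed's core, GCACTT, did not occur in the 1 spliced form searched for each of the 7 hosts. This says only that these letters are not in those transcripts. Other exons were not searched. The form held 606 bases in Snhg12 and 473 in Snhg6, where the exons used for counting held 1363 and 979.

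Libraries held between 2131156 and 4745083 counts over genes. QuantSeq reads the 3′ end of polyadenylated RNA, so that a transcript gives a tag near its end whatever its length. Levels are given as CPM without a length term. Counts were scaled to the library total times TMM, edgeR's scaling factor for each library. The transcript of the targeted gene was lower in every library of its knockout. Dgcr8 measured 50.1, 51.9 and 65.4 CPM in WT and between 9.11 and 15.4 CPM in Dgcr8 KO, and Ddx6 measured between 502 and 583 CPM in WT, 149 and 134 CPM in clone 1 and 38.8 and 25.6 CPM in clone 2. The tag lies at the 3′ end and outside the edited part of Ddx6, so that this checks the labels and not the protein. All 10 ESC markers were detected, and their summed level was between 4143 and 4939 CPM in all libraries. Fibroblast feeder markers summed to between 3.39 and 4.30 CPM in WT, 2.43 and 3.38 in Dgcr8 KO and 5.25 and 9.47 in Ddx6 KO. In each library 2 to 4 of these 7 markers were at 0, Dcn and Postn among them in all WT and Ddx6 KO libraries, and Col1a1 was at 1.87 ± 0.522 CPM (SD) in WT, 0.563 ± 0.141 in Dgcr8 KO and 4.04 ± 1.93 in Ddx6 KO. Their part in the results was not tested.

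In WT ESCs the hosts covered a wide range of levels. Gas5 was the most abundant, at 416 ± 16.8 CPM (SD, n = 3), followed by Snhg1 at 373 ± 26.1 CPM. Snhg8 at 180 ± 33.9 CPM, Snhg5 at 149 ± 15.9 CPM and Snhg6 at 120.5 ± 59.6 CPM came next, then Snhg3 at 84.0 ± 7.40 CPM and Snhg12 at 25.2 ± 3.96 CPM. The WT libraries of Snhg8 and Snhg5 overlapped, as did those of Snhg5 and Snhg6 and of Snhg6 and Snhg3, so that these neighbours did not differ beyond their spread. The libraries of Gas5 and Snhg1, of Snhg1 and Snhg8, and of Snhg3 and Snhg12 did not overlap. All 7 members passed the filter on low values, at least 3 CPM in at least 3 libraries, which left 11683 genes. The lowest value of any member in any library was 13.3 CPM.

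The host transcripts were lower in Ddx6 KO cells than in WT cells, and a part of them in Dgcr8 KO cells. Summed over the 7 members, the level was 1347 ± 98.4 CPM (SD, n = 3) in WT, 1088 ± 126 CPM (n = 3) in Dgcr8 KO and 771 ± 48.2 CPM (n = 4) in Ddx6 KO. In limma's test with Benjamini-Hochberg adjustment over all 11683 genes, 6 of 7 members fell in Ddx6 KO against WT, Snhg6 being the exception, and 0 rose. Of all genes, 16.6% fell and 17.9% rose in this comparison. In Dgcr8 KO against WT, 2 of 7 members fell, Snhg5 and Snhg8, and 0 rose, where 16.5% of all genes fell and 19.9% rose. The median log2 fold change of the members was -0.77 in Ddx6 KO and -0.17 in Dgcr8 KO, beside 0.02 and 0.0043 over all genes. Both comparisons use the same WT libraries. In bulk RNA, fewer cells with a transcript and less of it per cell cannot be told apart.

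**Figure D2:**
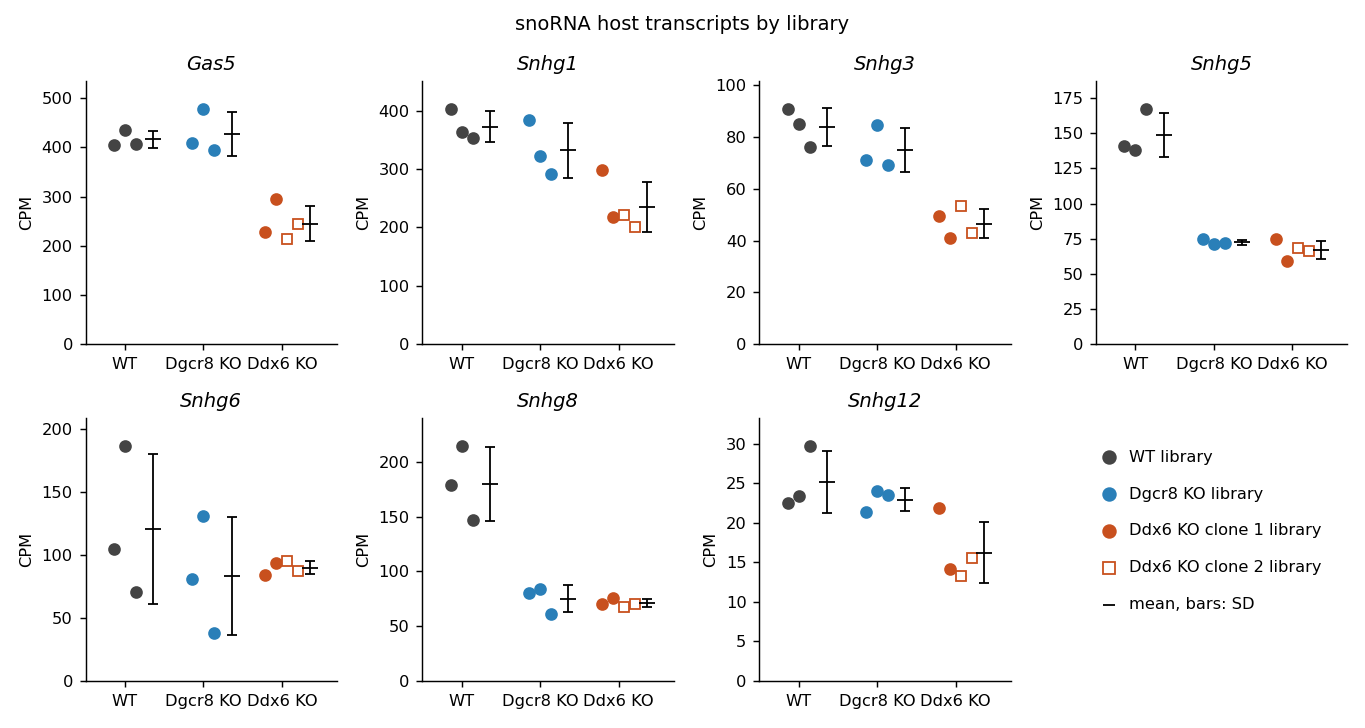
Level of each host transcript in CPM (y axes, from 0) in each of the 10 libraries, by genotype (x axes), with the mean and SD of each genotype beside the points and the Ddx6 KO clones drawn with different symbols. The Ddx6 KO libraries lie under all WT libraries for every gene but Snhg6, and the Dgcr8 KO libraries do so only for Snhg5 and Snhg8.

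Among the box C/D hosts, Gas5 (growth arrest specific) fell in Ddx6 KO, and in Dgcr8 KO its mean differed from WT by less than the spread. It measured 406, 436 and 407 CPM in WT, 408, 478 and 396 CPM in Dgcr8 KO, 229 and 294 CPM in Ddx6 KO clone 1, and 213 and 245 CPM in clone 2. Every Ddx6 KO library was lower than every library of the other genotypes, while the WT and Dgcr8 KO libraries overlapped. Gas5 in Ddx6 KO was at 58.9% of the WT mean, and its log2 fold change of -0.77 had an SE of 0.11 (limma adjusted p = 3.6e-05). In Dgcr8 KO the log2 fold change was 0.03, with a 95% confidence interval from -0.20 to 0.27 (limma adjusted p = 0.836). Compared directly, Gas5 was higher in Dgcr8 KO than in Ddx6 KO by 0.81 on the log2 scale (SE 0.11, limma adjusted p = 1.15e-05).

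Snhg1, the host of Snord22, also fell in Ddx6 KO, with more spread between libraries. It measured 402, 363 and 352 CPM in WT, 384, 322 and 291 CPM in Dgcr8 KO, 298 and 218 CPM in clone 1, and 222 and 201 CPM in clone 2. The Ddx6 KO libraries lay under those of WT, but the highest of them, in clone 1, was above the lowest Dgcr8 KO library. Snhg1 fell in Ddx6 KO to 63.0% of WT (log2 fold change -0.68, SE 0.12, limma adjusted p = 0.000426). In Dgcr8 KO its log2 fold change was -0.16, with a 95% interval from -0.44 to 0.11 (limma adjusted p = 0.357). The direct difference of 0.52 on the log2 scale passed the test (SE 0.13, limma adjusted p = 0.00284) although the libraries overlapped.

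Snhg5, the host of Snord50a and Snord50b, fell in both knockouts. It measured 141, 138 and 167 CPM in WT, 74.6, 71.2 and 71.7 CPM in Dgcr8 KO, 74.7 and 59.2 CPM in clone 1, and 68.6 and 66.5 CPM in clone 2. All 7 knockout libraries were lower than all WT libraries, and those of the knockouts overlapped with each other. The level in Dgcr8 KO was 48.8% of WT (log2 fold change -1.04, SE 0.12, limma adjusted p = 4.02e-06). In Ddx6 KO it was 45.2% of WT (log2 fold change -1.16, SE 0.12, limma adjusted p = 9.56e-07). The knockouts differed from each other by 0.12 on the log2 scale, with a 95% interval from -0.15 to 0.38 (limma adjusted p = 0.475), which does not show that they are alike.

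Snhg6, the host of Snord87, was the most variable member. It measured 105, 186 and 70.5 CPM in WT replicates 1, 2 and 3 and 81.0, 131 and 37.7 CPM in the Dgcr8 KO replicates of the same numbers. In Ddx6 KO it measured 83.8 and 93.4 CPM in clone 1 and 95.2 and 87.1 CPM in clone 2. The groups overlapped, and the coefficient of variation was 49.4% in WT and 56.1% in Dgcr8 KO but 5.93% in Ddx6 KO. Replicate 2 was the highest and replicate 3 the lowest in both WT and Dgcr8 KO. Snhg6 passed the test neither in Dgcr8 KO (log2 fold change -0.53, SE 0.33, limma adjusted p = 0.218) nor in Ddx6 KO (log2 fold change -0.28, SE 0.29, limma adjusted p = 0.491).

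Replicates of WT and Dgcr8 KO that share a number deviated together weakly over all genes, at r of 0.145, 0.267 and 0.285. WT replicate 1 had similar values with the Ddx6 KO libraries of number 1, at 0.162 and 0.154. The number was fitted as a block as an alternative. Within each number, Snhg6 was lower in Dgcr8 KO than in WT, in 3 of 3 pairs. The block was fitted over all 10 libraries, so that Ddx6 KO libraries entered it by their numbers as well. With the replicate number as a block, the log2 fold change of Snhg6 in Dgcr8 KO was -0.57 (limma adjusted p = 0.00328). In that fit 3 of 7 members fell, as did 18.9% of all genes. Since it also pairs the Ddx6 KO libraries by number, its call of Snhg6 in Dgcr8 KO is uncertain. Without the block, leaving out WT replicate 3 gave -0.92 (limma adjusted p = 0.0356) and leaving out Dgcr8 KO replicate 2 gave -0.92 (limma adjusted p = 0.0281). In Ddx6 KO, whose libraries were not taken to pair with WT by their numbers, leaving out WT replicate 2 turned the log2 fold change of Snhg6 to 0.11 (limma adjusted p = 0.806).

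**Figure D3:**
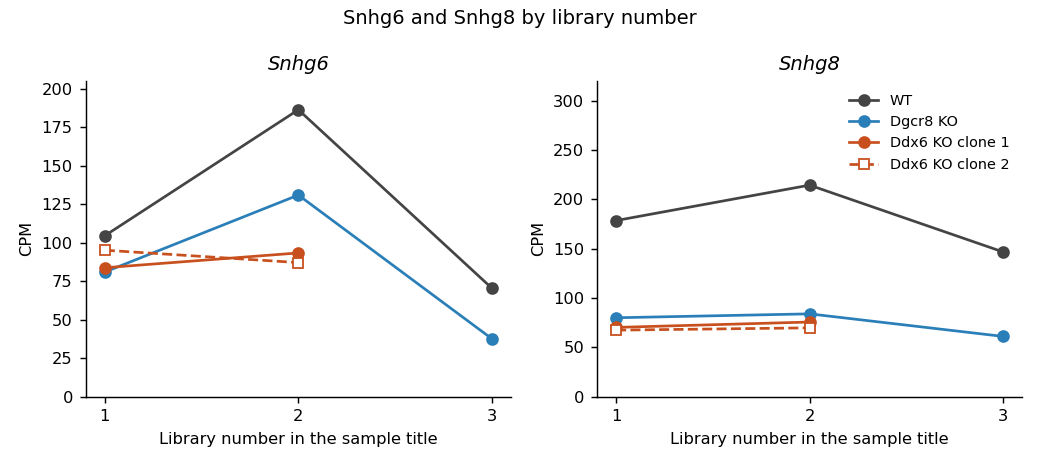
Level of Snhg6 (left) and Snhg8 (right) in CPM (y axes, from 0) by the library number in the sample titles (x axes), with 1 line for each genotype or Ddx6 KO clone. WT and Dgcr8 KO peak at number 2 for both genes, and the Snhg8 lines of the knockouts stay under the WT line at every number.

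Among the H/ACA hosts, Snhg3, which carries Snora73a and Snora73b, fell in Ddx6 KO and did not pass the test in Dgcr8 KO. It measured 90.8, 85.1 and 76.1 CPM in WT, 71.3, 84.7 and 69.3 CPM in Dgcr8 KO, 49.6 and 40.8 CPM in clone 1, and 53.2 and 42.9 CPM in clone 2. The Ddx6 KO libraries lay under all others, and WT and Dgcr8 KO overlapped. Snhg3 in Ddx6 KO was 55.5% of WT (log2 fold change -0.84, SE 0.13, limma adjusted p = 0.000114). In Dgcr8 KO the log2 fold change was -0.15, with a 95% interval from -0.43 to 0.14 (limma adjusted p = 0.425). The direct difference was 0.70 (SE 0.14, limma adjusted p = 0.000445). The exons of Snhg3 share 497 bases with the antisense gene Gm17300, which stranded counting keeps apart.

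Snhg8, the host of Snora24, showed the largest decreases of the 7 members in both knockouts. It measured 179, 215 and 147 CPM in WT, 80.1, 84.1 and 61.2 CPM in Dgcr8 KO, 70.3 and 75.8 CPM in clone 1, and 67.5 and 69.9 CPM in clone 2. No knockout library reached the lowest WT library. Snhg8 fell to 41.7% of WT in Dgcr8 KO (log2 fold change -1.23, SE 0.15, limma adjusted p = 4.49e-06). In Ddx6 KO it fell to 39.4% (log2 fold change -1.32, SE 0.14, limma adjusted p = 1.61e-06). The knockouts differed by 0.08, with a 95% interval from -0.23 to 0.40 (limma adjusted p = 0.686).

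Snhg12, with snoRNAs of both classes, was the least abundant member. It measured 22.5, 23.4 and 29.7 CPM in WT, 21.3, 24.0 and 23.5 CPM in Dgcr8 KO, 21.9 and 14.2 CPM in clone 1, and 13.3 and 15.6 CPM in clone 2. The highest Ddx6 KO library, in clone 1, stood just under the lowest WT library and above the lowest Dgcr8 KO library. Its place under WT rests on the TMM factors. Counts were 60 of 2607379 in that library and 47 of 2131156 in WT replicate 1, so by library totals alone it was higher. These levels rest on 38 to 134 counts a library. Snhg12 fell in Ddx6 KO (log2 fold change -0.69, SE 0.19, limma adjusted p = 0.0104) but no longer passed the test without WT replicate 3, at -0.53 (limma adjusted p = 0.0968). In Dgcr8 KO it did not pass (log2 fold change -0.17, SE 0.20, limma adjusted p = 0.528). The direct difference of 0.52 passed narrowly (limma adjusted p = 0.042), and its adjusted p lay between 0.0192 and 0.124 over 18 alternatives, of which 6 called it.

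**Figure D4:**
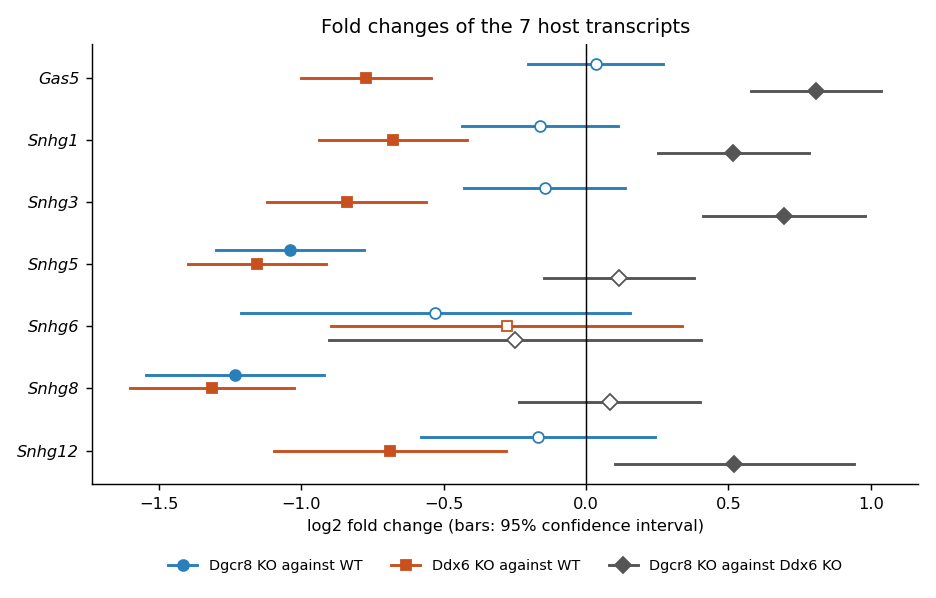
Log2 fold change of each host transcript (x axis) with its 95% confidence interval, for Dgcr8 KO against WT, Ddx6 KO against WT and Dgcr8 KO against Ddx6 KO. Filled symbols passed limma's test at an adjusted p under 0.05. The Ddx6 KO values lie between -1.32 and -0.28, and the Dgcr8 KO values between -0.17 and 0.03 except for Snhg5, Snhg6 and Snhg8.

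Set against each other directly, the knockouts differed in 4 of 7 members. Gas5, Snhg1, Snhg3 and Snhg12 were higher in Dgcr8 KO than in Ddx6 KO, as were 23.0% of all genes. No member was lower, where 2456 of all 11683 genes were. The median direct difference of the members was 0.52 on the log2 scale, beside 0.0019 over all genes. By overlap alone, 6 of 7 members had all Ddx6 KO libraries under all WT libraries (19.4% of all genes did), and 2 of 7 had all Dgcr8 KO libraries under them (21.1% of all genes). Snhg12 was among the 6 only on the TMM scale. With a decrease of more than 1 on the log2 scale asked for as well, 2 members remained in Ddx6 KO, Snhg5 and Snhg8, where 3.66% of all genes passed.

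The Ddx6 KO clones were also compared. Against WT, 5 of 7 members fell in clone 1 (10.7% of all genes did) and 6 of 7 in clone 2 (11.6% of all genes). Snhg12 made the difference, with a log2 fold change of -0.55 in clone 1 (limma adjusted p = 0.108) and -0.82 in clone 2 (limma adjusted p = 0.0224). Between the clones, 0 of 7 members passed limma's test, 0 of them at an unadjusted p under 0.05, and 0 by edgeR and by DESeq2, while 0.0428% of all genes passed. The log2 difference between clones ran from -0.27 in Snhg12 and Snhg1 to 0.08 in Snhg3. With 2 libraries a clone the intervals were wide, and that of Snhg6 ran from -0.83 to 0.91.

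Most tags of the hosted snoRNAs belonged to Snora73b. All 29 genes annotated as snoRNAs inside the members, overlapping entries counted separately, were in the count table. They held 11826 counts over all libraries, of which 9893 were of Snora73b. A mature snoRNA has no poly(A) tail, so that these libraries are not made to measure it. Snora73b, inside Snhg3, measured 449, 320 and 489 CPM in WT, 329, 216 and 346 CPM in Dgcr8 KO, 235 and 270 CPM in clone 1, and 286 and 275 CPM in clone 2. Only the Ddx6 KO libraries lay under all WT libraries. Its log2 fold change was -0.51 in Dgcr8 KO (SE 0.16, limma adjusted p = 0.0193) and -0.64 in Ddx6 KO (SE 0.15, limma adjusted p = 0.00357). The Dgcr8 KO value no longer passed without WT replicate 1 (-0.46, limma adjusted p = 0.0614), WT replicate 3 (-0.38, 0.119) or Dgcr8 KO replicate 2 (-0.29, 0.119). In Dgcr8 KO the tags of Snora73b passed the test and those of the spliced host Snhg3 did not, and the difference between them was not tested. Gm24452, a predicted snoRNA gene inside Snhg1 at chr19:8724531-8724602 on the + strand, was picked out after its values were seen. It measured 19.1, 19.0 and 22.4 CPM in WT, 6.09, 10.1 and 7.70 CPM in Dgcr8 KO, 12.02 and 16.3 CPM in clone 1, and 16.4 and 11.4 CPM in clone 2. Both knockouts lay under WT, and Dgcr8 KO lay under Ddx6 KO, without overlap. Gm24452 fell in Dgcr8 KO (log2 fold change -1.38, SE 0.26, limma adjusted p = 0.00045) and was lower there than in Ddx6 KO (-0.81, SE 0.26, limma adjusted p = 0.0183), where its host Snhg1 was higher in Dgcr8 KO than in Ddx6 KO. In Ddx6 KO it passed narrowly (-0.57, limma adjusted p = 0.0383) and lost the call without WT replicate 1 (0.0527), WT replicate 3 (0.179), the first library of clone 1 (0.095) or the second of clone 2 (0.122), and by edgeR (0.0626) and DESeq2 (0.0979). Snord22 and Snord87 passed in neither knockout, at log2 fold changes of -0.36 (limma adjusted p = 0.399) and -0.48 (0.184) in Ddx6 KO. Gm25894, also inside Snhg1, and Mir5117, inside Gas5, were tested as well and passed in neither. Gm25894 was at -0.33 in Dgcr8 KO (limma adjusted p = 0.22) and -0.48 in Ddx6 KO (0.0624). Mir5117 was at -1.33 in Dgcr8 KO (limma adjusted p = 0.065) and -0.16 in Ddx6 KO (0.782).

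Over the 10 libraries the named genes most like the mean of the members in log2 CPM were Tpd52 (Pearson r = 0.977), Paics (0.970), Polr2a (0.968), Rbm38 (0.951) and Spic (0.951), out of 8325 genes with at least 10 CPM. Paics acts in purine synthesis and Polr2a is the largest subunit of RNA polymerase II. Those most like Gas5 were Atp5a1 (0.991), Pelp1 (0.983), Rnf17 (0.974), Nid1 (0.973) and Rab11fip4 (0.968). These points share the libraries and the 3 genotype levels. Among the members, Snhg5 and Snhg8 had an r of 0.913 over the 10 libraries, Snhg1 and Snhg3 of 0.881 and Gas5 and Snhg3 of 0.847. Within groups, the highest r was that of Snhg6 and Snhg8, at 0.954, and that of Gas5 and Snhg1 was -0.587.

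Other noncoding hosts, taken from a list of the family, also fell in Ddx6 KO in part. Of 14 listed, 12 were in the table by name or synonym and 11 were tested. In Ddx6 KO 6 of 11 fell and 1 rose, with a median of -1.0. Snhg18 (-2.21, limma adjusted p = 6.59e-05), Snhg16 (-1.63, 0.000398) and Epb41l4aos (-1.40, 5.09e-07) fell most, and Snhg11 rose (0.95, 0.00318). Snhg16 measured between 13.5 and 22.0 CPM in WT and between 3.11 and 8.02 CPM in Ddx6 KO. Snhg18 was low, at a mean of 11.2 CPM in WT and between 1.39 and 2.92 CPM in Ddx6 KO. The summed level of the list was between 359 and 402 CPM in WT, 379 and 396 CPM in Dgcr8 KO and 200 and 254 CPM in Ddx6 KO.

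In Dgcr8 KO 3 of these 11 fell and 1 rose. Dancr (-1.31, limma adjusted p = 0.0343), Snhg18 (-0.85, 0.0221) and Epb41l4aos (-0.45, 0.00953) fell, and Zfas1 rose (0.42, 0.0212). Dancr was low, at a mean of 10.1 CPM in WT and 4.01 CPM in Dgcr8 KO. With 1 library left out the limma adjusted p reached 0.181 for Dancr (without Dgcr8 KO replicate 2), and 0.0809 for Snhg18, 0.0532 for Epb41l4aos and 0.0962 for Zfas1 (each without Dgcr8 KO replicate 1). Zfas1 carries box C/D snoRNAs as Gas5 does. It measured 116 ± 8.67 CPM in WT, 156 ± 29.4 CPM in Dgcr8 KO and 64.2 ± 7.38 CPM in Ddx6 KO, and in Ddx6 KO it fell by 0.85 on the log2 scale (limma adjusted p = 0.000162). Directly compared, it was higher in Dgcr8 KO than in Ddx6 KO by 1.28 (limma adjusted p = 8.25e-07), a larger difference than in any of the 7 members.

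Protein-coding hosts, mostly genes of ribosomal proteins and translation factors, fell in 20 of 23 cases in Ddx6 KO and in 7 of 23 in Dgcr8 KO, with medians of -0.63 and -0.28, and 0 rose in either. In Ddx6 KO, Rpl23a (-1.20, limma adjusted p = 0.000264), Rpsa (-0.94, 1.9e-05) and Rpl7a (-0.93, 0.0269) fell most. In Dgcr8 KO, Rpl17 (-0.68, limma adjusted p = 0.0208) and Rps3 (-0.41, 0.00206) were among those that fell. With 1 library left out the limma adjusted p reached 0.0915 for Rpl7a and 0.115 for Rpl17 (both without WT replicate 3). Rpl7a was low, at a mean of 7.975 CPM in WT and 4.215 CPM in Ddx6 KO, and kept its call in only 10 of 19 alternatives. It lost the call by DESeq2 (adjusted p = 0.0602) and in clone 1 and clone 2 alone (limma adjusted p = 0.134 and 0.0805). Ribosomal protein genes have near-identical processed copies, and uniquely mapped reads undercount them, so that their values are uncertain. Of 8 proteins that bind snoRNAs, 6 fell in Ddx6 KO and 2 in Dgcr8 KO, with medians of -0.46 and -0.21. Snu13 (-0.78), Nop56 (-0.72) and Dkc1 (-0.50) fell most in Ddx6 KO, at limma adjusted p = 0.0052, 0.00088 and 0.00175. In clone 2 alone Snu13 was at -0.53 (limma adjusted p = 0.08). Nhp2 (-0.70, limma adjusted p = 0.00079) and Nop10 (-0.60, 0.00055) fell in Dgcr8 KO.

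The factors of NMD itself moved in both directions. In Ddx6 KO 6 of 17 fell and 1 rose (median -0.23), and in Dgcr8 KO 5 of 17 fell and 1 rose (median -0.09). Upf3a, which binds the exon junction complex, fell by 0.52 in Ddx6 KO (limma adjusted p = 0.00115) and fell by 0.64 in Dgcr8 KO (limma adjusted p = 0.000308). Eif4a3 (-0.51, limma adjusted p = 0.00527) and Rbm8a (-0.48, 0.000752), core proteins of that complex, fell in Ddx6 KO, where Magohb, the gene of another core protein, rose (1.23, 0.00991). Magohb measured 9.88 CPM in WT and 25.9 CPM in Ddx6 KO. The related and more abundant Magoh fell (-0.34, limma adjusted p = 0.0408), from 470 CPM in WT to 375 CPM in Ddx6 KO. In clone 2 alone Magohb was at 0.82 (limma adjusted p = 0.0929). In Dgcr8 KO the helicase gene Upf1 (-0.64, limma adjusted p = 0.000698) and Smg5 (-0.49, 0.024) fell and the kinase gene Smg1 rose (0.51, 0.0019). Without Dgcr8 KO replicate 1 the limma adjusted p of Smg5 was 0.115.

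Coding messenger RNAs known as NMD substrates moved in both directions. Of 9, 2 rose and 1 fell in Ddx6 KO (median 0.16), and 4 rose and 2 fell in Dgcr8 KO (median 0.34). The stress genes Gadd45a and Atf3 rose in both, Gadd45a by 2.01 in Ddx6 KO (limma adjusted p = 0.000244) and 2.78 in Dgcr8 KO (5.78e-06), and Atf3 by 2.23 (0.00325) and 1.81 (0.016). Upp1, a uridine phosphorylase, fell by 3.64 in Ddx6 KO (limma adjusted p = 2.92e-09) and fell by 2.28 in Dgcr8 KO (1.75e-07). Cdkn1a rose (0.94, limma adjusted p = 8.25e-05) and Tbl2 fell (-0.66, 0.0246) in Dgcr8 KO. Without Dgcr8 KO replicate 1 the limma adjusted p in Dgcr8 KO was 0.0808 for Atf3, and without WT replicate 3 it was 0.0878 for Tbl2. Atf3 was low, at a mean of 2.40 CPM in WT, 8.77 CPM in Dgcr8 KO and 11.6 CPM in Ddx6 KO. Many of the 9 genes also answer to stress or to other pathways.

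**Figure D5:**
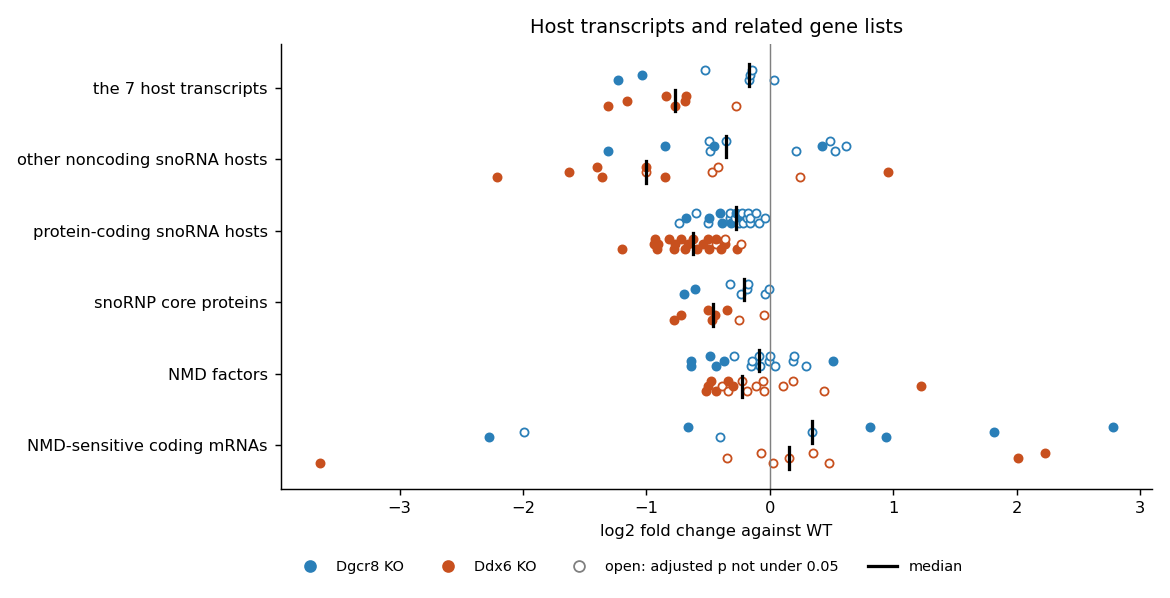
Log2 fold change against WT (x axis) of each tested gene of 6 lists (rows) in Dgcr8 KO and Ddx6 KO, with the median of each list as a black bar and open symbols for genes that did not pass limma's adjusted p of 0.05. The Ddx6 KO medians of the 3 host lists lie at -0.77, -1.0 and -0.63, and that of the NMD-sensitive coding mRNAs at 0.16.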

How the data were processed

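The authors trimmed single-end QuantSeq 3′ FWD reads with cutadapt 1.14, mapped them uniquely to mm10 with STAR 2.5.3a and counted them per gene and strand with featureCounts 1.5.3 on Gencode M14 basic exons without ribosomal RNA genes. The deposited values are raw counts, between 2131156 and 4745083 a library, and reads in exons shared by genes of a strand were left out. The members and gene lists were chosen with earlier results of these data known. Symbols were matched by gene ID, and the 92 spike-in sequences, 1.11% to 2.42% of the gene counts, were set apart and not used for scaling, since they varied between libraries of a clone. The study names limma and the filter of 3 CPM in 3 libraries but no transformation, so limma 3.58.1 was run with voom weights on TMM-scaled counts from edgeR 4.0.16 (R 4.3.3), 1 model for all 10 libraries. A gene was called at an adjusted p under 0.05. All 7 members, both targeted genes, up to 3 called genes in each direction of each other list and the 5 genes most like the members were named. Magoh was named beside Magohb outside this rule. A gene that this rule took from the protein-coding hosts is not reported here. The fit was tested on simulated data. Correlations between deviations of WT and Dgcr8 KO libraries with the same number were 0.145, 0.267 and 0.285, so these numbers were taken to pair the libraries. For other numbers they were at most -0.0196. Deviations from a group mean push such values below 0, so they are not separate support. Ddx6 KO libraries were not taken to pair, as their correlations with WT of the same number ran from 0.0108 to 0.162. The highest of these exceeds the lowest of the Dgcr8 KO pairs. DESeq2 1.42.0, edgeR, limma-trend, other scalings and filters, the block and leaving out each library were alternatives. Snhg4 and Snhg7 were not analysed here.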

Additional observations from a re-analysis of the deposited data

Results flagged for a closer look

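In 4 of the 7 host transcripts the response differed between the knockouts when tested directly with limma over all genes. Of all 11683 genes tested, 2688 were higher in Dgcr8 KO than in Ddx6 KO and 2456 were lower, so that a difference was common. Gas5 was higher in Dgcr8 KO than in Ddx6 KO by 0.81 on the log2 scale, Snhg3 by 0.70, Snhg12 by 0.52 and Snhg1 by 0.52. Snhg5 and Snhg8 fell in both knockouts and Snhg6 passed in neither, and their direct differences did not pass. In the group of 4 Ddx6 KO libraries no member had a library that stood apart by Dixon's test at the 95% level over 7 members, where chance gives about 1 in 20 groups. The nearest was Snhg1 in the first library of clone 1, at 298 CPM, with a gap of 0.786 of the range.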

How the results depend on the processing

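The decreases of Gas5, Snhg1, Snhg3, Snhg5 and Snhg8 in Ddx6 KO, and of Snhg5 and Snhg8 in Dgcr8 KO, kept their direction under every alternative run, and their call under each but the fold bound. The members called in Ddx6 KO numbered between 5 and 6 with 1 library left out. A fold bound of 1 on the log2 scale left 2 in Ddx6 KO, Snhg5 and Snhg8, so that Gas5, Snhg1, Snhg3 and Snhg12 lost their call, and 0 in the direct comparison. Over all genes, leaving out 1 library gave between 2630 and 4288 genes called in Ddx6 KO, the lowest without WT replicate 3, and between 3 and 5 genes between the clones. With the replicate block 8 genes were called between the clones. The blocked log2 fold change of Snhg6 was -0.74 in Ddx6 KO (limma adjusted p = 0.000487) and 0.17 between the knockouts, a change of sign. That fit pairs the Ddx6 KO libraries by number, which was not taken to hold for them, so these 2 values are uncertain. The blocked Dgcr8 KO value of Snhg6 comes from the same fit and is uncertain as well. Without the block Snhg6 was at -0.28 in Ddx6 KO (limma adjusted p = 0.491). The block changed 1 more member call, that of Snhg12 between the knockouts, which was lost. Library totals without scaling factors moved the median of all genes in Ddx6 KO by 0.12 on the log2 scale and turned the direct differences of Snhg5 to -0.011 and of Snhg8 to -0.046. Upper-quartile factors turned Gas5 in Dgcr8 KO to -0.061 and Snhg8 between the knockouts to -0.0095, and gave 1981 genes higher and 2493 lower in Dgcr8 KO in place of 2322 and 1924. With 1 library left out, sign changes occurred in Gas5 in Dgcr8 KO (from -0.046 to 0.087), Snhg6 in Ddx6 KO (-0.67 to 0.11) and Snhg6 between the knockouts (-0.64 to 0.20). Between the clones they occurred in Gas5 (-0.35 to 0.0043), Snhg3 (-0.063 to 0.24), Snhg5 (-0.15 to 0.20), Snhg6 (-0.031 to 0.12) and Snhg12 (-0.59 to 0.039). The causes were not tested. Depth was lowest for Snhg12, at 38 to 134 counts a library.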
